A study of Canis lupus familiaris with 15 samples.

Results

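Genes of the ATF4 amino acid response, the unfolded protein response and protein folding in the endoplasmic reticulum (ER) were followed in canine osteosarcoma cells. They are 60 genes chosen by their known function and found by their symbol in the deposited tables, 32 of the amino acid response and 28 of ER folding. At least 1 of 3 tables lists 41 of them, of 7699 symbols listed in all. RNA was sequenced in 5 groups of 3 libraries: parental and extravasation-positive cells of the line D17, parental and extravasation-positive cells of the line HMPOS, and parental cells of the line POS. All come from osteosarcomas of dogs, and HMPOS is a highly metastatic sub-line of POS. Extravasated cells are sub-lines expanded in culture from tumor cell clusters that had left the vessels of Tg(fli1a:EGFP) zebrafish embryos, in which the endothelium is fluorescent. Parental cells are the same lines kept in culture and never passed through a fish, so passage through the embryo, isolation with bleach and enzyme, regrowth from few cells and extravasation itself cannot be told apart.

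When unfolded proteins accumulate in the ER, the sensors PERK (encoded by EIF2AK3), IRE1 (ERN1) and ATF6 start a program that slows translation and makes more chaperones and degradation factors. PERK phosphorylates the translation initiation factor eIF2alpha, as other kinases do when amino acids run short, and this favours translation of the transcription factor ATF4. ATF4 raises genes for amino acid synthesis, amino acid uptake and the charging of tRNAs, and also its own inhibitors. Osteoblast-like cells secrete much collagen and depend on this folding machinery.

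Each table gives 1 FPKM for each group (fragments scaled to transcript length and to the mapped fragments of the library), computed by the authors over its libraries. The spread between libraries, the overlap of groups and the sequencing depth are therefore unknown, and no SD or test of a difference is given here. Every row is marked significant by the authors' program, and the tables hold no other rows, so a gene that is not listed was not shown to be the same in both groups. The smallest absolute log2 ratio listed was 0.28 for D17, 0.38 for HMPOS and 0.23 for HMPOS against POS, and smaller differences do not appear. All ratios below were computed from the deposited FPKM and are extravasated over parental cells, or HMPOS over POS. The tables name the groups meta and norm, and norm was read as parental, so the opposite reading would turn every direction given for extravasated cells. In such bulk RNA, a change in the share of cells that express a gene and a change in RNA per cell cannot be told apart. Among markers of the labelled tissue, SPARC and COL1A1 of the osteoblast lineage were listed in all 3 tables, at 187 to 4439 FPKM and 75.9 to 397 FPKM, while RUNX2 was in none (the tables were normalised separately). Other listed markers of that lineage were low in some groups, with IBSP at 0.427 FPKM in extravasated and 2.05 in parental HMPOS cells and SPP1 at 1.73 FPKM in parental HMPOS cells. Endothelial and blood cell markers were not listed apart from KDR, at most at 1.73 FPKM, and the epithelial markers listed, EPCAM and CDH1, reached at most 4.30 FPKM. A marker that is not listed may still be expressed at similar levels in both groups, so these values do not exclude other cells.

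In D17, the stress regulators and degradation genes listed among the members were higher in extravasated than in parental cells. Lower were 5 of the 7 listed tRNA synthetases, 3 of the 4 listed amino acid synthesis enzymes and the chaperones HSP90B1, CALR and HYOU1. The table for D17 lists 30 of the 60 members, with 17 higher and 13 lower after extravasation. Of all 4412 genes listed there, 54.2% were higher and 45.8% lower, so the members as a whole divided like the rest. Apart, 8 of 17 listed amino acid response members and 9 of 13 listed ER folding members were higher. The median log2 ratio was -0.31 for the former and 0.34 for the latter, against 0.39 over all listed genes, and relative to that value the ER folding median became -0.049. At a fold above 1.5, 7 members were higher and 5 lower, where 36.9% of all listed genes were higher and 24.9% lower by that much.

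All 5 regulators of the ATF4 pathway listed for D17 were higher in extravasated cells (median log2 ratio 0.94), where 54.2% of all listed genes were higher. PPP1R15A, which brings a phosphatase to eIF2alpha and so ends the translational block, was at 9.45 FPKM in extravasated and 4.02 in parental D17 cells, 2.35-fold apart. CEBPB, a transcription factor that pairs with ATF4, was at 18.5 and 8.62 FPKM, 2.15-fold higher. ATF5, a factor related to ATF4, was at 2.21 and 1.15 FPKM, the lowest levels of any member in this table. These 3 genes had the widest ratios of the group. TRIB3, a pseudokinase induced by ATF4 that restrains it, was at 15.5 and 10.4 FPKM. CHAC1, which breaks down glutathione (CanFam3.1 chromosome 30 from 8078373 to 8080962, as the tables give it), was at 14.9 and 9.98 FPKM, and both lay just under a fold of 1.5. With a fold above 2, PPP1R15A and CEBPB remained, where 18.3% of all listed genes were higher by that much and 8.50% lower.

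The enzymes of amino acid synthesis did not follow these regulators. CTH, which makes cysteine from cystathionine (CanFam3.1 chromosome 6 from 75324280 to 75348244), was at 16.0 FPKM in extravasated and 43.6 in parental D17 cells. This 2.74-fold lower value was the largest difference of any member in D17, and its ratio ranked 108 from the lowest among the 4412 listed genes. SHMT2, the mitochondrial enzyme that splits serine into glycine and a one-carbon unit, was at 91.4 and 128 FPKM. ALDH18A1, which begins proline synthesis, was at 93.1 and 115 FPKM. Both were therefore modestly lower. ASNS, asparagine synthetase and a classical ATF4 target, was the 1 listed enzyme of this group that was higher, at 37.5 and 26.8 FPKM.

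Of the 8 listed genes of tRNA charging and export, 6 were lower in extravasated D17 cells, with a median log2 ratio of -0.37. Of all listed genes, 45.8% were lower. IARS, the isoleucyl-tRNA synthetase, was at 32.1 FPKM in extravasated and 54.7 in parental cells. EPRS, which charges glutamate and proline tRNAs (CanFam3.1 chromosome 38 from 14754124 to 14824003), was at 49.3 and 78.4 FPKM, and these were the largest decreases of the group. LARS was at 53.9 and 70.3 FPKM, NARS at 56.3 and 71.9 FPKM and TARS at 45.0 and 58.0 FPKM, synthetases for leucine, asparagine and threonine with similar, smaller differences. The exportin for tRNAs, XPOT, was at 130.2 and 179 FPKM. CARS and WARS, for cysteine and tryptophan, went the other way. CARS was at 23.5 FPKM in extravasated and 16.0 in parental cells, and WARS, which interferon also induces, at 178 and 129 FPKM.

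Among the listed ER chaperones and cofactors of D17, 4 of 6 were lower in extravasated cells, where 45.8% of all listed genes were lower. HSP90B1, the ER member of the HSP90 family, had the highest level of any member in D17 and was at 578 FPKM in extravasated and 739 in parental cells. CALR, the lectin chaperone calreticulin, was at 290.5 and 397 FPKM. HYOU1, an exchange factor for the ER HSP70, was at 36.0 and 54.1 FPKM, just above a fold of 1.5. CRELD2, a secreted stress-induced factor, was at 16.1 and 25.6 FPKM. These were the 4 ER members lower in extravasated cells. The other chaperone genes listed, DNAJB9 and DNAJC3, encode cochaperones of the ER HSP70 and were higher, at 8.94 against 5.34 FPKM and at 53.0 against 43.0 FPKM.

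PDIA5, a disulfide isomerase (CanFam3.1 chromosome 33 from 26131909 to 26227557), had the highest ratio of any member in D17, at 34.1 FPKM in extravasated and 13.8 in parental cells. HERPUD1, a scaffold of ER-associated degradation, followed at 40.8 and 17.2 FPKM. Their folds of 2.48 and 2.37 were the only ones above 2 among ER folding members. SEL1L, a subunit of the degradation ligase, was at 55.2 and 39.3 FPKM. EDEM1, which trims mannose from misfolded glycoproteins, was at 28.6 and 20.5 FPKM. All 3 degradation genes listed among the members were thus higher, where 54.2% of all listed genes were. The sensor PERK, EIF2AK3, was at 16.3 FPKM in extravasated and 10.5 in parental D17 cells. CREB3L1, an ER-bound factor that promotes collagen secretion in osteoblasts, was at 55.4 and 44.4 FPKM, and PDIA4, a further isomerase, at 199.6 and 158 FPKM. CREB3L1, PDIA4 and DNAJC3 were the members that turned from higher to lower when ratios were taken relative to the median of all listed genes. That median is over genes selected for a difference, so it is not a neutral reference.

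**Figure D1:**
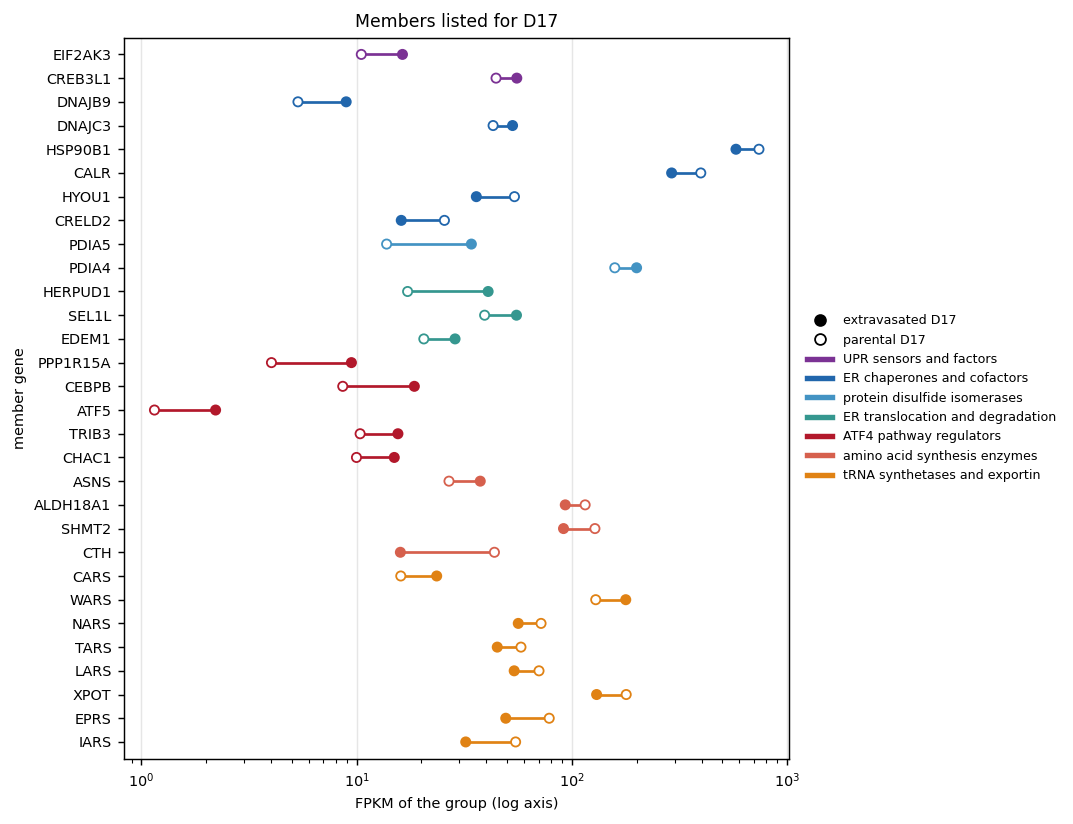
FPKM in extravasated (filled) and parental (open) D17 cells for the 30 listed members on a log axis, 1 pooled value per group, coloured by role. The filled points lie to the right for all 5 ATF4 pathway regulators and to the left for 6 of 8 genes of tRNA charging and export.

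In HMPOS, fewer members were listed, and ATF4, TRIB3, CHAC1, asparagine synthetase and PDIA5 were higher in extravasated cells. The table lists 9 members, 7 of the amino acid response and 2 of ER folding, and 7 of the 9 were higher. Among all 1189 genes listed for HMPOS, 67.0% were higher, so 7 of 9 is near that share. The median log2 ratio was 0.66 for the amino acid response members, against 0.58 over all listed genes. At a fold above 1.5, 5 members were higher and 0 lower, where 49.9% of listed genes were higher and 14.6% lower. No member passed a fold of 2, against 20.5% of listed genes higher and 4.79% lower by that much.

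ATF4 itself was listed for HMPOS alone, at 342 FPKM in extravasated and 255 in parental cells, and it had the highest level of the listed members. Its control is largely translational, which RNA levels do not show. TRIB3 was at 27.0 FPKM in extravasated and 13.6 in parental HMPOS cells, a fold of 1.99 and the largest difference of a member in this line. CHAC1 was at 15.7 and 9.60 FPKM. ASNS was at 36.6 and 19.5 FPKM, 1.88-fold higher, and CARS at 25.0 and 15.9 FPKM. Each of these 5 genes of the amino acid response was thus higher, while the other 2 were lower. CTH was at 10.2 FPKM in extravasated and 14.8 in parental cells, and EPRS at 75.3 and 102 FPKM.

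For ER folding, PDIA5 was at 65.7 FPKM in extravasated and 33.6 in parental HMPOS cells, 1.96-fold higher. CREB3L1 was at 219.7 and 161 FPKM. The table for HMPOS lists no chaperone and no degradation gene among the members. Relative to the median of all listed genes, CREB3L1 and ATF4 turned to lower values, with log2 ratios of -0.14 and -0.16, and the other 5 genes stayed higher.

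**Figure D2:**
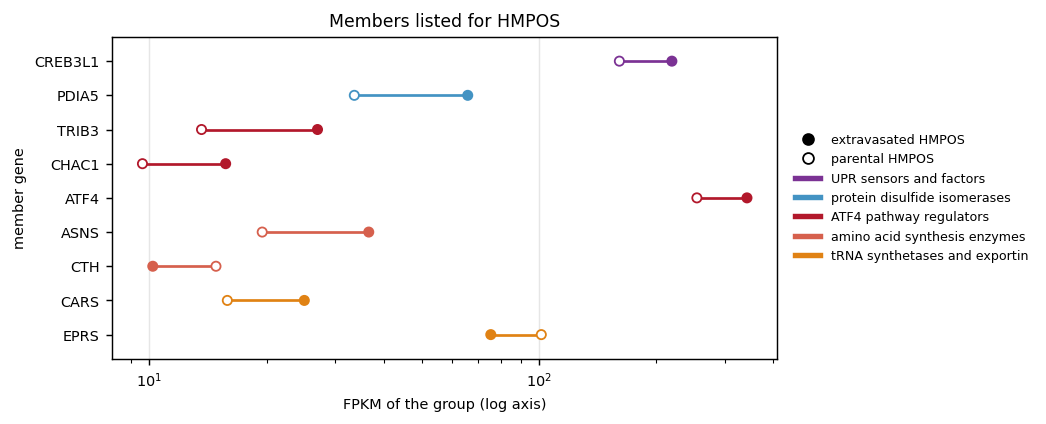
FPKM in extravasated (filled) and parental (open) HMPOS cells for the 9 listed members on a log axis, 1 pooled value per group, coloured by role. CTH and EPRS are the genes whose filled point lies to the left, and TRIB3 and PDIA5 have the widest gaps.

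D17 and HMPOS share no libraries, so their tables may be set beside each other. Both list 8 members, 26.7% of those listed for D17 and 88.9% of those listed for HMPOS, and all 8 had the same direction. Over all listed genes, the shares listed in both were 13.9% for D17 and 51.6% for HMPOS. CREB3L1, TRIB3, CHAC1, ASNS, CARS and PDIA5 were higher after extravasation in either line, and CTH and EPRS were lower. Of the 614 genes listed in both tables, 87.1% shared their direction, so 8 of 8 lies close to what listed genes did in general. CTH differed more in D17, with a log2 ratio of -1.45 against -0.54 in HMPOS, and ASNS more in HMPOS, with 0.91 against 0.48. Whether the lines differ in the size of these changes could not be tested without values per library. The regulators PPP1R15A, CEBPB and ATF5, and the synthetases IARS, LARS, NARS and TARS, were listed for D17 and not for HMPOS, which does not show that they were unchanged there.

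In parental HMPOS cells, 4 of 4 listed amino acid synthesis enzymes, 8 of 9 listed tRNA synthetases and 4 of 5 listed chaperone genes had a higher FPKM than in parental POS cells, and PDIA5, PDIA4 and CREB3L2 had a lower one. The table lists 29 members, of which 20 were higher and 9 lower in HMPOS. Among all 5746 genes listed there, 47.7% were higher and 52.3% lower. By count, the difference from that share lay mostly with the amino acid response, of which 13 of 16 listed members were higher. Their median log2 ratio was 0.46 against -0.31 over all listed genes. Of the ER folding members, 7 of 13 were higher, with a median log2 ratio of 0.31, also above that of all listed genes. At a fold above 1.5, 9 members were higher and 4 lower, where 23.6% of listed genes were higher and 34.4% lower. No member changed direction relative to the median of all listed genes.

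All 4 amino acid synthesis enzymes in this table were higher in HMPOS, where 47.7% of all listed genes were higher. PSPH, which makes serine from phosphoserine, was at 135 FPKM in HMPOS and 72.0 in POS. ALDH18A1 was at 234 and 129 FPKM, and these were the wider differences. PSAT1, which acts just before PSPH, was at 189 and 137 FPKM, and CTH at 14.8 and 11.6 FPKM. Of the 9 listed genes of tRNA charging, 8 were higher. CARS was at 15.8 FPKM in HMPOS and 8.38 in POS, 1.89-fold higher, and GARS, the glycyl-tRNA synthetase, at 59.7 and 36.8 FPKM. The differences of SARS, IARS, AARS, NARS, WARS and TARS were smaller, from 1.45-fold for SARS (103 and 70.8 FPKM) to 1.22-fold for TARS (64.7 and 53.1 FPKM). EPRS was the exception, at 101 FPKM in HMPOS and 131 in POS.

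CHAC1 had the highest ratio of any member in the comparison of HMPOS with POS, at 9.59 FPKM in HMPOS and 2.64 in POS, 3.63-fold apart. It ranked 147 from the highest among 5746 listed genes and was the 1 member above a fold of 2, where 8.49% of listed genes were higher by that much. The other regulators listed went the opposite way. CEBPB was at 10.1 FPKM in HMPOS and 14.9 in POS, and ATF5 at 2.20 and 3.08 FPKM.

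Of the 5 listed chaperone genes, 4 were higher in HMPOS, where 47.7% of all listed genes were higher. HSP90B1 was at 1021 FPKM in HMPOS and 630.4 in POS, CALR at 635 and 423 FPKM, and HYOU1 at 94.2 and 61.7 FPKM, with HSP90B1 the widest at a fold of 1.62. HSPA5, the ER HSP70 also called BiP that binds unfolded chains and holds the sensors inactive, was at 652 and 525 FPKM. Its listed span overlaps that of RABEPK, and that of AARS overlaps GLG1. The labels and the study's methods name different kits, both of which keep the strand, but the strand setting of the counting is not given in the sources used here, so reads of such neighbours may be shared. DNAJB9 was the 1 listed chaperone gene that was lower, at 6.74 FPKM in HMPOS and 9.83 in POS.

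Both listed isomerases were lower in HMPOS. PDIA5 was at 33.6 FPKM in HMPOS and 101 in POS, a 3.01-fold difference and the 1 member lower by a fold above 2, where 19.1% of listed genes were. PDIA4 was at 225 and 378 FPKM. CREB3L2, the relative of CREB3L1 that serves secretion in cartilage, was at 8.91 and 15.8 FPKM. Translocation and degradation genes were divided. SSR1, a subunit of the translocon-associated complex, was at 107 FPKM in HMPOS and 57.7 in POS, while SEC61B, of the channel itself, was at 132 and 199.6 FPKM. SEL1L was at 51.8 and 36.2 FPKM and its partner ligase SYVN1 at 39.9 and 29.8 FPKM, both higher in HMPOS. HERPUD1 was lower, at 19.7 and 27.6 FPKM.

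**Figure D3:**
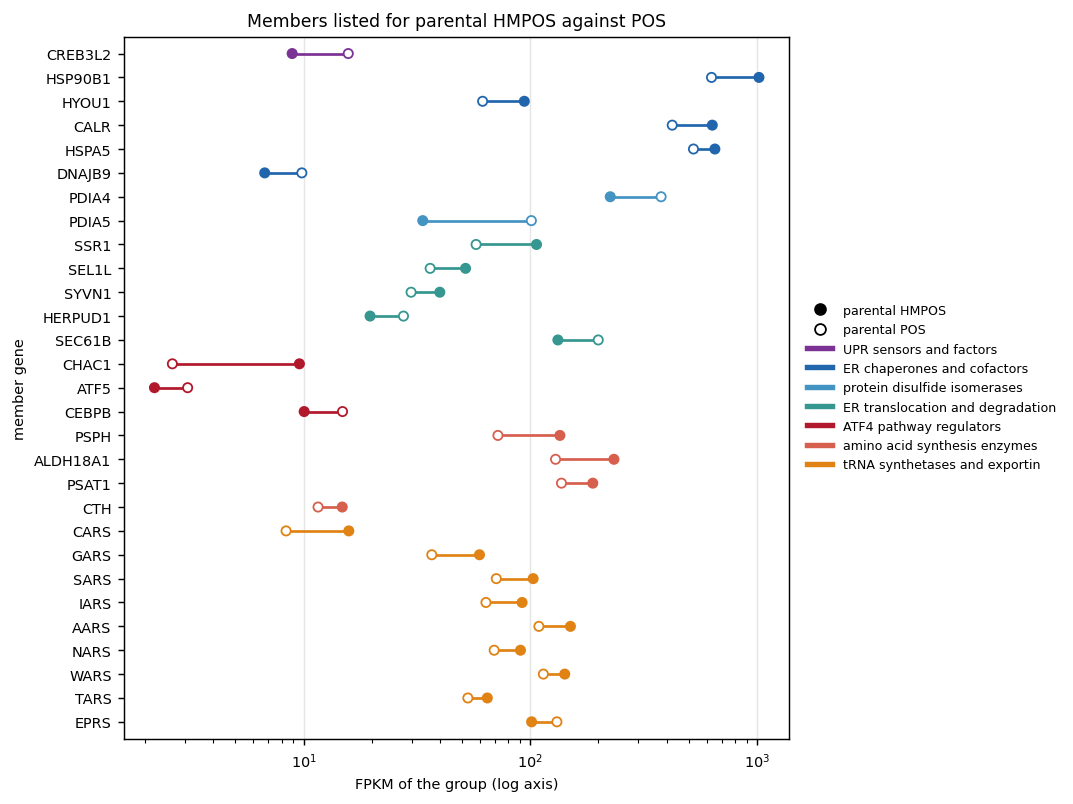
FPKM in parental HMPOS (filled) and parental POS (open) cells for the 29 listed members on a log axis, 1 pooled value per group, coloured by role. Filled points lie to the right for 4 of 4 synthesis enzymes and 8 of 9 tRNA synthetases, and CHAC1 and PDIA5 have the widest gaps, in opposite directions.

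The members CHAC1, CTH, CARS, EPRS and PDIA5 were listed in every table. The same parental HMPOS libraries stand in the table for HMPOS and in that for HMPOS against POS, so their ratios are not independent and only levels are set side by side. For these 5 genes the parental HMPOS values of both tables differed by at most 0.0015 on the log2 scale, so their levels may be read as 1 series. From POS to parental HMPOS to extravasated HMPOS cells, CHAC1 was at 2.64, 9.59 and 15.7 FPKM and CARS at 8.38, 15.8 and 25.0 FPKM, each highest in extravasated cells. EPRS was at 131, 101 and 75.3 FPKM, lowest in extravasated cells. PDIA5 was at 101, 33.6 and 65.7 FPKM, with parental HMPOS lowest. CTH was at 11.6, 14.8 and 10.2 FPKM, and here parental HMPOS was highest.

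Extravasated D17 cells and the comparison of HMPOS with POS also share no libraries. Both tables list 19 members, 63.3% of those listed for D17 and 65.5% of those listed for HMPOS against POS, of which 14 had opposite directions. Over all listed genes, the shares listed in both were 59.4% for D17 and 45.6% for HMPOS against POS. HSP90B1, CALR, HYOU1, ALDH18A1, CTH, IARS, NARS and TARS were lower in extravasated D17 cells and higher in HMPOS than in POS, and PDIA5, PDIA4, HERPUD1, DNAJB9, CEBPB and ATF5 were the reverse. Of the 2622 genes listed in both tables, 77.9% had opposite directions, so the members did as listed genes did in general and the pattern is not particular to them. With meta and norm of D17 read the other way, these 14 members and 77.9% of genes would share their direction and the other 5 members would be opposite. CHAC1, CARS, WARS and SEL1L were higher in both and EPRS was lower in both.

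**Figure D4:**
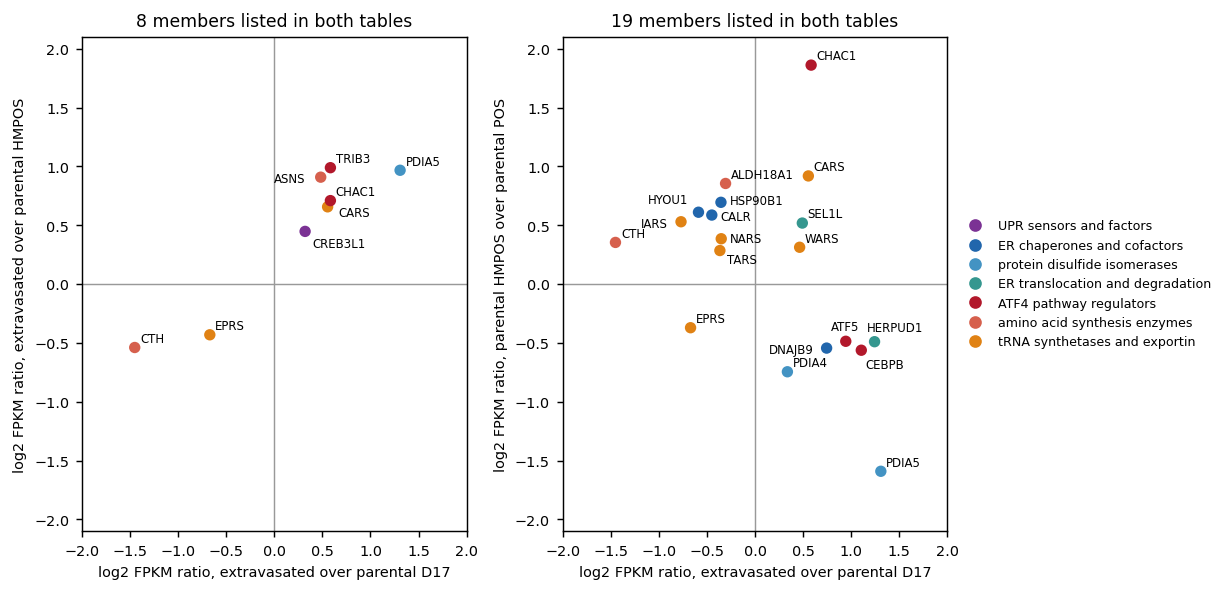
Log2 FPKM ratio of extravasated over parental D17 cells (x axis) against that of extravasated over parental HMPOS cells (left) and of parental HMPOS over parental POS cells (right), 1 point per member listed in both tables, coloured by role. All 8 points on the left lie in the quadrants of equal sign, and 14 of 19 on the right lie in those of opposite sign.

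The members' log2 ratios ran from -1.45 to 1.31 in D17, from -0.54 to 0.99 in HMPOS, and from -1.59 to 1.86 in HMPOS against POS. Listed members had a median of 39.1 FPKM in extravasated D17 cells against 15.0 FPKM over all listed genes, and of 92.1 FPKM in parental HMPOS cells against 15.8 FPKM in the table with POS. The smallest listed difference of a member was that of TARS in that table, with a log2 ratio of 0.29 at 64.7 and 53.1 FPKM.

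**Figure D5:**
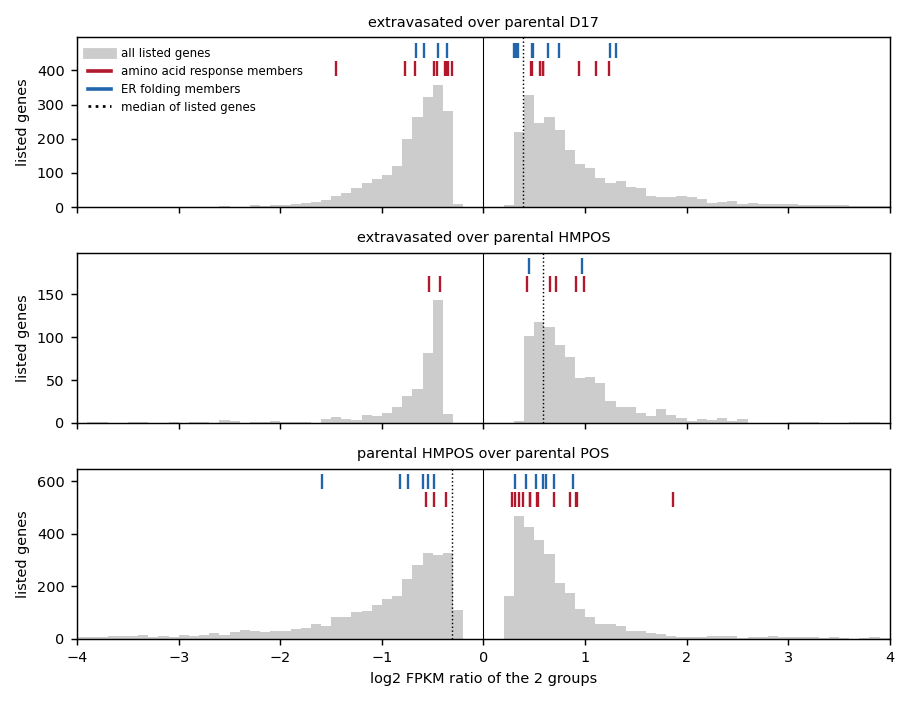
Number of listed genes by log2 FPKM ratio (grey bars) in the 3 comparisons, with the listed members of the amino acid response (red) and ER folding (blue) as ticks above and the median of listed genes as a dotted line. No bar stands near 0, since the tables hold only rows marked significant, and in HMPOS against POS 13 of 16 red ticks lie above 0 where the median is -0.31.

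A total of 116 further genes of the same pathways in 10 lists were looked up. For D17, 45 were listed and 25 of these were higher, 55.6% against 54.2% of all genes in that table. All 8 listed stress-response targets outside the members were higher in extravasated D17 cells, with a median log2 ratio of 1.06. DDIT4, an inhibitor of mTORC1, was at 41.8 FPKM in extravasated and 4.03 in parental cells, and KLHL24 was at 4.61 and 1.41 FPKM. NUPR1, a stress-induced chromatin protein, was at 8.65 and 2.93 FPKM, and JDP2, a repressor of the AP-1 family, at 32.4 and 15.3 FPKM. SESN2, which senses leucine for mTORC1, was just above a fold of 2 at 10.6 and 5.16 FPKM. Both listed genes of the other eIF2alpha kinases and phosphatase were lower. EIF2AK1 was at 26.2 FPKM in extravasated and 39.1 in parental cells, and PPP1R15B at 28.8 and 35.2 FPKM. All 4 listed synthetases that are not members (DARS, FARSA, RARS and VARS) were lower, as were 5 of 6 one-carbon and serine enzymes and 5 of 6 amino acid transporters. TYMS, which makes thymidylate, was at 54.1 FPKM in extravasated and 115 in parental D17 cells, MTHFD1L at 28.3 and 57.7 FPKM, and the leucine transporter SLC7A5 at 24.6 and 50.4 FPKM. The glycine transporter SLC6A9 was the exception, at 2.58 and 0.743 FPKM. Of 7 other listed ER chaperones and oxidoreductases 6 were higher. Among them were CNPY3 (55.8 and 17.9 FPKM, its span overlapping CUL7 and PTK7), the oxidase ERO1B (8.65 and 3.66 FPKM) and FKBP7 (33.3 and 14.2 FPKM). Of 3 further listed degradation genes 2 were higher. The other, VCP, was lower, at 220 FPKM in extravasated and 328 in parental D17 cells.

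For HMPOS, 16 of these genes were listed and 13 were higher in extravasated cells, against 67.0% of all genes in that table. All 4 listed amino acid transporters were higher. SLC7A11, the cystine importer, was at 4.52 FPKM in extravasated and 2.09 in parental HMPOS cells, and SLC6A9 at 8.59 and 4.24 FPKM, the ones above a fold of 2. SLC7A5 was at 99.6 and 74.3 FPKM, the opposite direction from D17. DDIT4 was also opposite, at 90.8 FPKM in extravasated and 135 in parental HMPOS cells. The difference between the lines was not tested. In HMPOS 5 of 6 listed ER chaperones and oxidoreductases were higher. The peptidyl-prolyl isomerases FKBP7, FKBP9 and FKBP10 and the exchange factor SIL1 were among them as they were in D17. VCP was the 1 further degradation gene listed and was lower, as in D17. It was at 361 FPKM in extravasated and 510 in parental HMPOS cells.

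For HMPOS against POS, 62 were listed and 38 were higher in HMPOS, 61.3% against 47.7% of all genes in that table. The 5 listed amino acid transporters and the 4 listed synthetases were all higher, with SLC7A5 at 74.2 FPKM in HMPOS and 26.7 in POS and DARS at 65.0 and 31.7 FPKM. DDIT4 was at 135 and 30.8 FPKM and the lipoprotein receptor VLDLR at 17.7 and 6.46 FPKM. Of the 5 listed genes of the other eIF2alpha kinases and phosphatase, 3 were higher in HMPOS. They were the kinases EIF2AK1 (1.42-fold) and EIF2AK4 (1.45-fold), and EIF2S1 (1.91-fold). The kinase EIF2AK2, the double-stranded RNA sensor that interferon induces, was lower, at 6.49 FPKM in HMPOS and 53.6 in POS. That was the widest difference of these lists. PPP1R15B was also lower. Among ER chaperones and oxidoreductases 8 of 12 were lower in HMPOS, FKBP7 (32.9 and 68.8 FPKM) included, whereas the oxidase ERO1A (75.2 and 25.1 FPKM) and UGGT1, the glucosyltransferase that checks folding (58.2 and 20.1 FPKM), were higher. OS9, a lectin of ER-associated degradation, was at 41.0 and 126 FPKM, and its span overlaps CDK4.

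Of the 60 members, 19 were in none of the 3 tables. They include the sensors ATF6 and ERN1 and the factor XBP1, the regulators ATF3, DDIT3 and CEBPG, and the enzymes PHGDH, MTHFD2, PYCR1 and CBS. The synthetases MARS and YARS, the chaperones CANX, DNAJB11, SDF2L1 and MANF, and the isomerases PDIA3, PDIA6 and P4HB were also not listed. Their levels were not analysed here, so a central part of the unfolded protein response, with DDIT3, XBP1 and ATF6, has no value in these comparisons.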

How the data were processed

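RNA of 15 libraries was sequenced, 3 for each of 5 groups. Per the labels, reads were handled with Trimmomatic 0.38, TopHat2, Cufflinks and Cuffdiff on CanFam3.1, whereas the study's methods name STAR, voom and limma. The tables have Cuffdiff columns. The FPKM values are those the authors deposited, 1 for each group, pooled over its libraries. The authors' own ratios, statistics, p-values and q-values in the tables were not used. Depth per sample is unknown, so no interval or detection floor is given.

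Groups named norm were taken as parental, because the POS group, which is parental by its labels, has that name. The HMPOS column of the table with POS is also named norm. Over 907 genes listed in both tables, its median absolute log2 difference from the norm column of the HMPOS table was 0.0013. From the other column it was 0.70. A match of columns with the same name shows that they hold the same libraries, and it cannot show that norm is parental. An exchange of the extravasated and parental libraries of a line before the tables were made was not tested.

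Ratios were log2 of the first over the second group FPKM with no pseudocount. Members were matched by exact symbol and counted at any fold and at folds above 1.5 and 2. No test was run, since no value per library was used, and the limma fit foreseen for such values does not apply. Every listed member is named. Of the other pathway genes, up to 4 per list with a fold of 2 or more and at least 1 FPKM are given, and the others named were chosen after their values were seen. The members and lists were chosen with earlier results of these data known. The counting was tested on simulated data. Alternatives were the fold thresholds, a minimum of 1 FPKM, pseudocounts of 1 and 0.1 and centring on the median of all listed rows. Python 3.11.15, numpy 2.4.6, pandas 2.3.3 and matplotlib 3.10.9 were used.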

Additional observations from a re-analysis of the deposited data

How the results depend on the processing

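A minimum of 1 FPKM in the higher group left each count and median within 1.5 times of its value, and so did pseudocounts of 1 and 0.1 for the medians. Among single members, a pseudocount of 1 moved the log2 ratio of ATF5 in D17 from 0.94 to 0.58.

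With a fold above 2, 2 amino acid response members were higher and 1 lower in D17, and 2 ER folding members were higher and 0 lower. In HMPOS, 0 members of either kind were higher or lower. For HMPOS against POS, 1 amino acid response member was higher and 0 lower, and 0 ER folding members were higher and 1 lower. Of all listed genes, 18.3% were higher and 8.50% lower by that much in D17, and 20.5% and 4.79% in HMPOS. For HMPOS against POS, these shares were 8.49% and 19.1%. With a fold above 1.5, 3 amino acid response members were higher and 3 lower in D17, and 4 ER folding members higher and 2 lower. In HMPOS, 4 amino acid response members were higher and 0 lower, and 1 ER folding member was higher and 0 lower. For HMPOS against POS, 5 amino acid response members were higher and 0 lower, and 4 ER folding members were higher and 4 lower. Of all listed genes, 36.9% were higher and 24.9% lower by that much in D17, and 49.9% and 14.6% in HMPOS. For HMPOS against POS, these shares were 23.6% and 34.4%.

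Centred on the median of all listed genes, the median log2 ratio of the amino acid response members became -0.69 for D17, 0.073 for HMPOS and 0.77 for the comparison with POS. That of ER folding members became -0.049 in D17, a reversal, 0.12 in HMPOS and 0.62 in the comparison with POS. In D17 6 ER folding members were then higher and 7 lower, and in HMPOS 1 was higher and 1 lower. The members that reversed were CREB3L1 (-0.065), DNAJC3 (-0.085) and PDIA4 (-0.049) in D17 and ATF4 (-0.16) and CREB3L1 (-0.14) in HMPOS. These moves follow from the construction of each setting.

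No paired analysis was possible because each group has 1 pooled value in the tables, although the labels number the libraries of each group. The fits that leave out a replicate were not run for the same reason.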

Other observations

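Over all genes listed for both D17 and HMPOS against POS, which share no libraries, 2042 of 2622 had opposite directions. Of these, 1113 were higher in extravasated D17 cells and lower in HMPOS than in POS, and 929 were the reverse. With meta and norm of D17 read the other way, the 2042 genes would share their direction and 580 would be opposite. The osteoblast lineage marker SPARC was at 433.0 FPKM in extravasated and 187 in parental D17 cells and at 1775 FPKM in HMPOS and 4439 in POS, and COL1A1 was at 397 and 224 FPKM and at 75.9 and 213 FPKM. All 4 listed markers of that lineage were higher in extravasated D17 cells, where 54.2% of all listed genes were higher. In extravasated HMPOS cells 4 of 5 were higher and IBSP was lower, where 67.0% of all listed genes were higher. In HMPOS against POS 4 of 5 were lower, where 52.3% of all listed genes were. BGLAP at 27.3 and 676 FPKM and SPP1 at 1.73 and 13.8 FPKM were among them. SP7 was higher, at 54.5 and 41.7 FPKM. The part of such markers in the members' values was not tested.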
